A study of Rattus norvegicus with 9 samples.

Results

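Haemoglobin and its haem supply were examined in the rat hippocampus through 4 genes, Hbb and Hbb-bs (beta chains), Hba-a1 (an alpha chain) and Alas2 (the erythroid 5-aminolevulinate synthase). They were chosen by symbol, out of 18733 genes in the count tables, because their levels in these libraries were already known to differ between groups. Their own differences are therefore given as a description. Where their calls are counted, they are set beside the share of all genes called and support nothing. Poly(A) RNA came from 9 male rats, 1 library per rat and 3 rats per group. Control rats were fed normally. The PSCI group (post-stroke cognitive impairment) consisted of rats whose middle cerebral artery had been blocked, which models an ischaemic stroke (MCAO), and that were fed normally for 2 weeks. The taVNS group consisted of rats with the same surgery given transcutaneous auricular vagus nerve stimulation, an electrical stimulation of the outer ear, for 14 days. Rats with the surgery were included only when a spontaneous alternation rate and a cognitive index both fell under a limit set relative to the control mean, and were then randomised between these groups. Strain, age, sham surgery, sham stimulation, the hemisphere taken and whether vessels were flushed before dissection are not given in the sources used here, so surgery and impairment cannot be told apart.

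Red cells carry oxygen with haemoglobin, a tetramer of alpha and beta chains that each hold a haem group. Alas2 catalyses the first step of haem synthesis in red cell precursors, while its relative Alas1 serves other tissues. Mature mammalian red cells have no nucleus, but young circulating red cells (reticulocytes) still hold globin RNA, and blood left in brain vessels brings that RNA into a tissue sample. Globin RNA has also been described in some neurons and glia. In bulk tissue, fewer cells of a type and less RNA per cell cannot be told apart, so a globin level here is a level in the dissected piece of tissue.

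The promoters of the 3 chain genes are shown because the chains moved together across libraries. Each run is the 250 bases before the gene start on the minus strand in RefSeq's GRCr8 assembly, written 5′ to 3′ along the gene. GRCr8 is newer than the build the counts were made on. The windows lie at chr1:167663722-167663971 for Hbb, chr1:167631631-167631880 for Hbb-bs and chr10:15842581-15842830 for Hba-a1. Capitals mark matches to the motifs searched. A GATA form is AGATAA or TGATAA, or the same with G as its last letter, on either strand. The others are CACCC and CCAAT on either strand, and a TATA-like box, CATAAA or TATAAA, on the gene strand only. No GATA form overlaps another motif in these windows.
Hbb: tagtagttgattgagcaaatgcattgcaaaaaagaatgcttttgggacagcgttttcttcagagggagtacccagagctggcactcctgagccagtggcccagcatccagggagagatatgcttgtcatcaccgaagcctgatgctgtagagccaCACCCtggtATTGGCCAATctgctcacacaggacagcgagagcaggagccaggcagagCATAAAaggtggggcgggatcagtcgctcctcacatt
Hbb-bs: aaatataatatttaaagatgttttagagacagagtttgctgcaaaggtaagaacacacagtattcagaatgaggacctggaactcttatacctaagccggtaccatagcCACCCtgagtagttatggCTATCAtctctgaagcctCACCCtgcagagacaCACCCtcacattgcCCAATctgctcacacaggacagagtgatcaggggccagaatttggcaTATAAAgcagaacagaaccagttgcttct
Hba-a1: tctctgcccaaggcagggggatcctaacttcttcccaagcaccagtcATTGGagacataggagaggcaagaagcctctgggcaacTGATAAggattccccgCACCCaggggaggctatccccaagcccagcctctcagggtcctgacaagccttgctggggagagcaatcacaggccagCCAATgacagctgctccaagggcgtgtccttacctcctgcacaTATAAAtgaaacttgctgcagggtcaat
CACCC lay at 95 to 91 bases before the start in Hbb and at 149 to 145 in Hba-a1, and at 3 places in Hbb-bs. CCAAT occurred on the gene strand at 81 to 77 in Hbb, 76 to 72 in Hbb-bs and 71 to 67 in Hba-a1. Hbb held CATAAA at 37 to 32, while Hbb-bs and Hba-a1 held TATAAA at 29 to 24 and 28 to 23. A GATA form was found in Hbb-bs (TGATAG on the opposite strand) and Hba-a1 (TGATAA), and none of these letters was in the Hbb window. Of 33469 RefSeq promoters of the same length, 27% held a GATA form, 49.2% CACCC, 34.0% CCAAT and 13.3% CATAAA or TATAAA, so single matches are common. The Hbb and Hbb-bs windows were 61.2% identical. The Alas2 window, on chromosome X, is not shown.

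The libraries held 13747389 to 15415694 estimated counts, and no sample pair within a group was alike to within sampling noise. All 16 hippocampal neuron markers were detected in every library. PSCI replicate 2 and taVNS replicate 3 stood apart, with summed meningeal and fibroblast markers of 415 and 539 CPM (counts per library size after TMM scaling) against 73.0 to 125 CPM in the other 7 libraries. PSCI replicate 2 also had the lowest summed neuron markers, 6021 CPM against 8995 to 12130 CPM elsewhere. None of the 16 meningeal genes was called by edgeR in any comparison. At an unadjusted p under 0.05 there were 8, 2 and 4 in PSCI against control, taVNS against PSCI and taVNS against control. DESeq2 called 3, 0 and 0. Over all 14840 genes tested, 3757, 3132 and 557 had an unadjusted p under 0.05, in that order of comparisons. By edgeR 9.85%, 5.75% and 0% of all genes were called, and by DESeq2 15.2%, 10.4% and 0.0606%. Results below are given with and without this pair of libraries where they rest on them.

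Every taVNS library had more of each of the 4 transcripts than every control library, and every control library had more than every PSCI library, on the CPM scale. The same order holds for the alpha chain, the beta chains and the haem enzyme. The mean CPM in taVNS was 4.03 (Hba-a1) to 8.41 (Alas2) times that in PSCI, and the taVNS libraries were also above control.

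Hbb, the more abundant of the beta chains, stood at 54.4, 49.0 and 54.3 CPM in the 3 control libraries (replicates 1, 2 and 3, the order used throughout). In PSCI it stood at 12.9, 19.4 and 42.9 CPM, and in taVNS at 183, 86.5 and 69.4 CPM. The control rats lay close together on this gene, PSCI replicate 3 lay nearest to control, and taVNS replicate 1 was far above the other stimulated rats. The group means were 52.5 ± 3.08, 25.1 ± 15.8 and 113 ± 61.0 CPM (SD, n = 3 each). The fitted log2 fold change was -1.07 (SE 0.455) for PSCI against control, 2.17 (SE 0.464) for taVNS against PSCI and 1.10 (SE 0.447) for taVNS against control. The last 2 comparisons share the taVNS libraries, and each group serves in 2 of the 3 comparisons, so their directions are not independent.

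Hbb-bs, a beta chain gene near Hbb on chromosome 1, was much scarcer. Its levels were 2.96, 2.45 and 2.49 CPM in control, 0.316, 0.645 and 1.54 CPM in PSCI, and 9.54, 5.0 and 3.90 CPM in taVNS. Again PSCI replicate 3 was the highest of its group and taVNS replicate 1 the highest of all. Means were 2.63 ± 0.284, 0.835 ± 0.636 and 6.15 ± 2.99 CPM. The log2 fold change was -1.63 (SE 0.525), 2.84 (SE 0.522) and 1.21 (SE 0.475) in the same order of comparisons.

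Hba-a1, the alpha chain that pairs with them, followed the same pattern. It stood at 46.6, 49.3 and 44.2 CPM in control, 15.4, 19.4 and 42.5 CPM in PSCI, and 161, 66.5 and 83.6 CPM in taVNS. The gap between PSCI replicate 3 and the lowest control was small, 42.5 against 44.2 CPM, and in raw counts these groups overlapped. Means were 46.7 ± 2.58, 25.8 ± 14.6 and 104 ± 50.5 CPM, with log2 fold changes of -0.86 (SE 0.407), 2.01 (SE 0.415) and 1.15 (SE 0.402).

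Alas2 was rare in every library. Control rats had 10, 9 and 8 counts, PSCI rats 3, 0 and 8, and taVNS rats 37, 19 and 32. In CPM these were 0.690, 0.637 and 0.588 for control, 0.204, 0 and 0.522 for PSCI, and 2.59, 1.33 and 2.19 for taVNS. The 0 in PSCI replicate 2 allows up to 0.201 CPM (a floor of 3 counts), and counts of 8 and 8 tie the top PSCI and bottom control library. All 3 stimulated rats lay above every other rat. Means were 0.638 ± 0.0512, 0.242 ± 0.263 and 2.04 ± 0.645 CPM. The log2 fold changes were -1.37 (SE 0.746), 3.03 (SE 0.691) and 1.66 (SE 0.617), and on log2(RPKM + 1), a scale that flattens low genes, the taVNS against PSCI difference was 0.93.

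**Figure D1:**
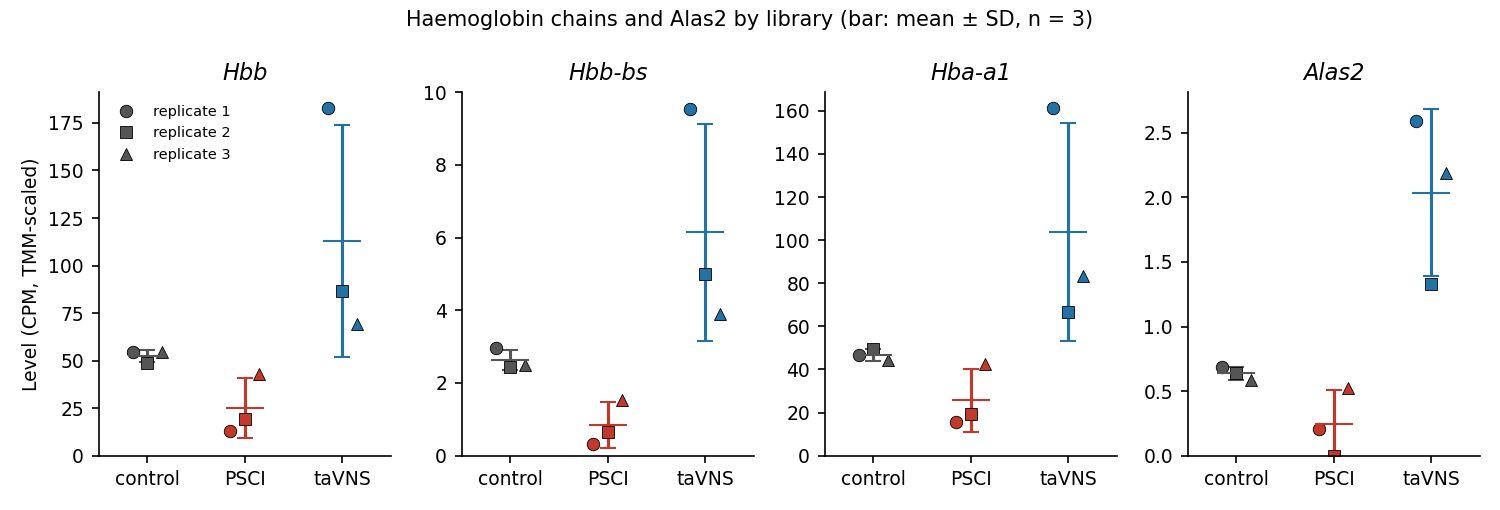
Level of Hbb, Hbb-bs, Hba-a1 and Alas2 (vertical axis, CPM, a separate scale for each gene) in the 9 libraries, by group, with symbols for the replicates and a bar at the mean with its SD. The 3 taVNS libraries sit above the 3 control libraries and the 3 PSCI libraries below them in each panel, with PSCI replicate 3 close to control.

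Per gene length, the alpha and beta chains were present at like levels. The RPKM (reads scaled for gene length and depth) of Hba-a1 was 162 ± 11.1 in control, 93.0 ± 51.4 in PSCI and 366 ± 197 in taVNS, and that of Hbb was 149 ± 6.95, 74.0 ± 45.4 and 327 ± 191. Their RPKM ratio within a library ran from 0.936 to 1.46, with a median of 1.21. Alas2 had an RPKM of 0.36 to 0.38 in control, 0 to 0.31 in PSCI and 0.75 to 1.52 in taVNS. These ratios describe levels, and the Hba-a1 to Hbb ratio differed less between libraries than either gene did.

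In PSCI against control 0 of the 4 genes passed edgeR's adjusted threshold, 2 had an unadjusted p under 0.05 and DESeq2 called 1. Across all 14840 genes tested, edgeR called 9.85% in that comparison, 7.71% higher and 2.14% lower. Of the 14840 genes, 3757 had an unadjusted p under 0.05 there, and DESeq2 called 15.2%. In taVNS against PSCI all 4 were called higher, where 5.75% of all genes were called and 0.842% were higher. In taVNS against control 0 of the 4 were called by edgeR or DESeq2, although 4 had an unadjusted p under 0.05, and edgeR called 0% of all genes, with 557 at an unadjusted p under 0.05. Libraries of 3 against 3 without overlap were also common among all genes: 11.3% were wholly lower in PSCI than in control, 10.6% wholly higher in taVNS than in PSCI, and 5.74% wholly higher in taVNS than in control. Since the genes were picked from these contrasts, nothing is read from their counts. Their median log2 fold changes were -1.22, 2.5 and 1.18, beside medians within 0.01 of 0 for all genes.

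Single libraries set the size of these differences more than their direction. Leaving out PSCI replicate 3 moved the PSCI against control log2 fold change to -1.70 for Hbb, -2.41 for Hbb-bs, -1.43 for Hba-a1 and -2.58 for Alas2, while without PSCI replicate 1 it was -0.76, -1.26 and -0.60 for the 3 chains. For Alas2 it was -0.79 without PSCI replicate 2, the library with a count of 0, and -0.81 without that library and taVNS replicate 3. The highest taVNS library carried much of the other differences. Without taVNS replicate 1 the taVNS against control value was 0.57 for Hbb, 0.74 for Hbb-bs and 0.69 for Hba-a1. Leaving it out also lowered the taVNS against PSCI log2 fold change to 1.66 for Hbb, 2.39 for Hbb-bs and 1.56 for Hba-a1. Leaving out PSCI replicate 3 raised it to 2.80, 3.62 and 2.58, and to 4.24 for Alas2. Without PSCI replicate 2 and taVNS replicate 3 together, it was 2.28 for Hbb, 2.91 for Hbb-bs, 1.99 for Hba-a1 and 2.40 for Alas2, so the 3 chains changed little without the libraries with high meningeal markers and Alas2 was lower than the 3.03 of the full set. Hbb-bs still passed edgeR's threshold in that setting, and Hbb, Hba-a1 and Alas2 did not. As a description of these libraries, the call was kept in 7 of 18 alternatives for Hbb, 14 for Hbb-bs, 9 for Hba-a1 and 8 for Alas2, while the direction was kept in all of them.

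**Figure D2:**
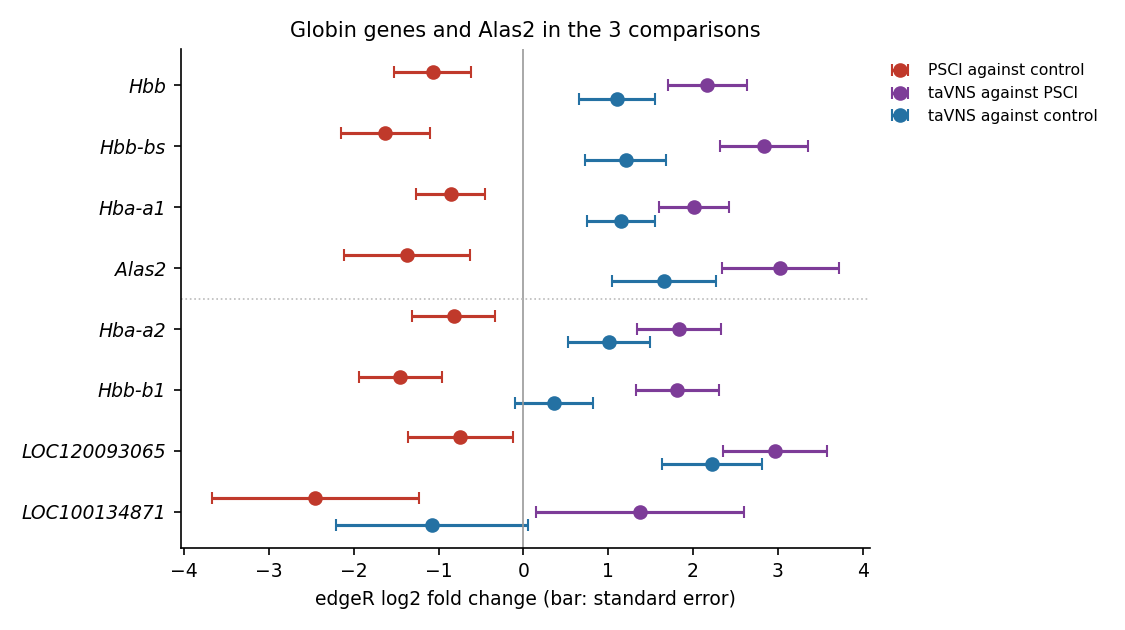
The edgeR log2 fold change (horizontal axis, with its standard error as a bar) of the 4 chosen genes, above the dotted line, and of 4 other globin genes, below it, in the 3 comparisons. The chosen genes lie left of 0 for PSCI against control and right of 0 for both taVNS comparisons, and LOC100134871 has the widest bars.

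The blood content of each piece of tissue was read as the share of all counts taken by Hbb, Hbb-bs and Hba-a1 together. It was 0.0101%, 0.00991% and 0.0100% in control, so on these 3 genes the control rats were alike, with overlapping exact 95% binomial intervals (0.00957 to 0.0106%, 0.00941 to 0.0104% and 0.00947 to 0.0105%). It was 0.00285%, 0.00415% and 0.00864% in PSCI, and the interval of each, 0.00258 to 0.00313%, 0.00382 to 0.00448% and 0.00818 to 0.00912%, was clear of the others and of control. It was 0.0359%, 0.0153% and 0.0162% in taVNS. Replicates 2 and 3 of that group overlapped in their intervals (0.0147 to 0.0160% and 0.0155 to 0.0168%), while replicate 1 (0.0350 to 0.0369%) was clear of all others. These intervals cover counting error only. These 3 chains were thus a small part of every library, at most 1 count in 2782, and all red cell globins in the tables were at most 1 count in 2129. Over all those globins, which do not depend on how reads were split between copies, the control rats were less alike. They stood at 0.0141%, 0.0143% and 0.0126%, and the intervals of replicate 2 (0.0137 to 0.0149%) and replicate 3 (0.0120 to 0.0132%) did not overlap.

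Summed over the 3 chains, the level was 102 ± 1.77 CPM in control, 51.7 ± 31.0 in PSCI and 223 ± 113 in taVNS. The highest library in a group held 1.03 times the lowest in control, 3.03 times in PSCI and 2.25 times in taVNS, so the rats with the surgery were spread more widely than the controls. Over all red cell globins the control level was 139 ± 10.6 CPM and these ratios were 1.15, 2.76 and 2.34. Between the highest and lowest of all 9 libraries the level differed 12.3-fold. As a difference of mean log2 CPM, taVNS against PSCI was 2.16 (SE 0.614), and 1.77 to 2.62 when any 1 library was left out. PSCI against control was -1.14 (SE 0.476), and -1.60 to -0.80 with 1 library left out. For taVNS against control it was 1.02 (SE 0.389), and 0.63 without taVNS replicate 1. Without the pair of libraries with high meningeal markers the 3 values were 2.24, -1.03 and 1.21.

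The 4 transcripts moved together from library to library. On log2(CPM + 0.1), Pearson's r over the 9 libraries was 0.99 between Hbb and Hbb-bs, 0.98 between Hbb and Hba-a1, and 0.88 between Hbb and Alas2. These are descriptions, since the libraries fall into 3 groups, the genes share each library's depth and the beta chain genes share reads. Set against haemoglobin, Alas2 rested on few counts, so the exact Poisson intervals of the ratio are wide (1.47 to 20.8 in PSCI replicate 1). There were 6.64, 6.33 and 5.82 Alas2 counts per 1000 haemoglobin counts in control and 7.13, 0 and 6.0 in PSCI, where the 0 has an upper exact Poisson limit of 5.97. In taVNS the ratio was 7.34, 8.41 and 13.9, each above every control and PSCI library, though by little in replicate 1. The interval of taVNS replicate 3, 9.53 to 19.7, excludes the values of the other 8 libraries but overlaps the intervals of all of them except PSCI replicate 2.

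**Figure D3:**
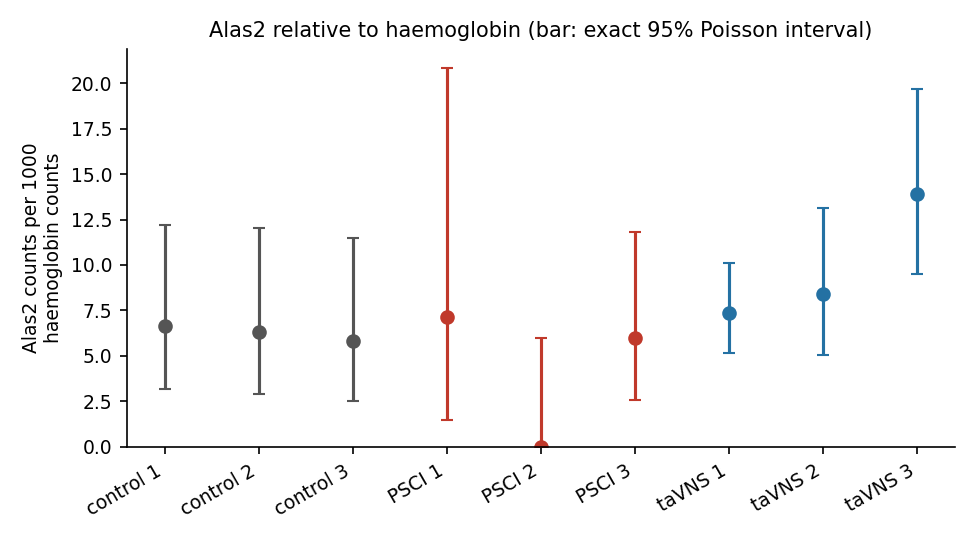
Alas2 counts per 1000 counts of Hbb, Hbb-bs and Hba-a1 (vertical axis) in each of the 9 libraries, with the exact 95% Poisson interval of the Alas2 count as a bar. Values run from 0 in PSCI replicate 2 to 13.9 in taVNS replicate 3.

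The rat genome holds several near-identical copies of both chains. On chromosome 1 of GRCr8, Hbb-bs, Hbb-b1, LOC100134871 (named Hbbl1 by RefSeq), LOC120093065 (named Hbb-b2 by RefSeq) and Hbb follow each other. In all 9 libraries the counts of these 5 beta genes summed to a whole number within 0.025, while 39 of the 45 single values were not whole. The 3 alpha genes Hba-a1, Hba-a2 and Hba-a3 likewise summed to whole numbers in 9 of 9 libraries, with 18 of 27 single values not whole. Reads were therefore shared out within each family by the authors' estimate, and a family total does not depend on that split while the level of 1 gene does.

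The beta family total was 69.4 ± 5.01 CPM in control, 30.5 ± 17.4 in PSCI and 141 ± 68.3 in taVNS. The alpha family total was 69.9 ± 7.33, 38.5 ± 22.7 and 151 ± 79.7 CPM. The taVNS mean was 4.63 times the PSCI mean for beta and 3.91 times for alpha. Family totals thus kept the direction of Hbb and Hba-a1, and the alpha to beta ratio of counts ran only from 0.905 to 1.28 over the 9 libraries. In PSCI replicate 3 the alpha total of 64.5 CPM lay above the 62.1 CPM of control replicate 3, so for the whole alpha family PSCI and control overlapped.

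The split of the beta counts differed between libraries of the same group. Hbb took 69.6% to 85.4% of them. The copy LOC100134871 took 14.6%, 13.8% and 1.30% in control, 4.2%, 1.62% and 5.47% in PSCI, and 0.383%, 0.452% and 8.75% in taVNS. The copy LOC120093065 took 1.83%, 2.09% and 8.70%, then 14.5%, 5.08% and 2.44%, then 8.94%, 7.93% and 11.6%. Control replicates 1 and 2 were high in the first copy and low in the second, and control replicate 3 was the other way round. Hbb-bs counts were 5.45%, 5.01% and 4.58% of the Hbb counts in control, 2.44%, 3.33% and 3.6% in PSCI, and 5.22%, 5.78% and 5.61% in taVNS, so all PSCI values were the lowest. The upstream windows of the 2 copies are printed to show how alike these windows are, at 98.4% identical. The transcribed sequences were not compared. The windows lie at chr1:167656964-167657213 and chr1:167650236-167650485 (minus strand, GRCr8), with capitals as before.
LOC120093065: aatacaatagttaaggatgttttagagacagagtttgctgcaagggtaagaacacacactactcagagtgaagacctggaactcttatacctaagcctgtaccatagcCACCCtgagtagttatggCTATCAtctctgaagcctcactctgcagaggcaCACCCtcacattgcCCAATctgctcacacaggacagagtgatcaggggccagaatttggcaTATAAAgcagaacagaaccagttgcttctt
LOC100134871: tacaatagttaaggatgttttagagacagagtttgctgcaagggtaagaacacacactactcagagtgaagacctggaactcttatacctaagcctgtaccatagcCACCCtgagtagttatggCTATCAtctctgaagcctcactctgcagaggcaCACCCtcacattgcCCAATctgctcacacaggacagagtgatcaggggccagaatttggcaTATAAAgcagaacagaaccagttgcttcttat
Both windows end in the same letters up to a shift of a few bases and hold the same motifs in the same order. The Hbb-bs window was 94.8% identical to the first and 93.3% to the second. The source of the differing splits was not tested.

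**Figure D4:**
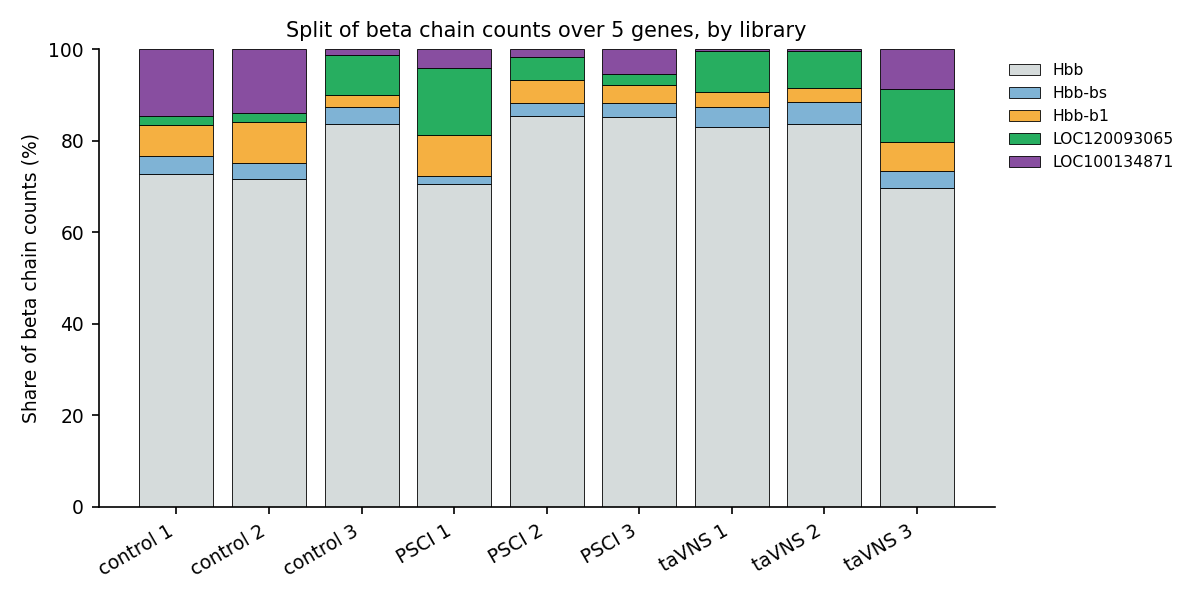
Share of the beta chain counts (vertical axis, percent) that the authors' estimate gave to each of 5 genes in the 9 libraries. Hbb takes most in every library, and the remainder passes between LOC120093065 and LOC100134871 from library to library.

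Other globins were read from a wider list, of which 10 genes were found and 7 tested. In taVNS against PSCI 1 of 7 rose and 0 fell by edgeR, beside 0.842% of all genes that rose and 4.91% that fell. DESeq2 called 4 (10.4% of all genes), and 4 had an unadjusted p under 0.05 (3132 of 14840 genes). The log2 fold change was positive in 6 of 7. In PSCI against control and taVNS against control edgeR called 0 of 7 (9.85% and 0% of all genes). In PSCI against control 2 had an unadjusted p under 0.05 (3757 of 14840 genes) and DESeq2 called 2 (15.2%). In taVNS against control these numbers were 1 (557 of 14840 genes) and 0 (0.0606%). The gene that rose was LOC120093065, with 2.66, 1.15 and 1.23 CPM in PSCI and 19.7, 8.20 and 11.6 CPM in taVNS (log2 fold change 2.97, SE 0.618, edgeR adjusted p = 0.0271). As a beta copy it shares reads with Hbb and Hbb-bs, as Hba-a2 and Hba-a3 do with Hba-a1. Its call is therefore not separate from the chosen genes and depends on how reads were split, so nothing is read from it. It missed the threshold without PSCI replicate 2 or 3 or without any 1 taVNS library, at adjusted p values of up to 0.109. Hba-a2, the second alpha gene, stood at 23.9, 26.5 and 17.1 CPM in control, 7.88, 8.21 and 22 CPM in PSCI and 77.7, 27.2 and 31.2 CPM in taVNS, with a log2 fold change of 1.83 (SE 0.498, edgeR adjusted p = 0.0676) for taVNS against PSCI. Hba-a3 had 5, 12 and 12 counts in control, 0 in every PSCI library, and 39, 0 and 23 in taVNS. Globins outside the red cell had like means in the 3 groups. Neuroglobin (Ngb), an oxygen-binding protein of neurons, averaged 5.39, 6.19 and 5.53 CPM, and cytoglobin (Cygb) 34.7, 29.6 and 33.7 CPM in control, PSCI and taVNS.

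Markers of the red cell other than globin were near the limit of detection. Slc4a1, the anion exchanger band 3 of the red cell membrane, had 3 counts over the control group, 3 over PSCI and 15 over taVNS. Ahsp, which stabilises free alpha chains, had 1, 1 and 3 counts, and Gata1, the main erythroid transcription factor, 0, 0 and 1. Klf1, an erythroid factor that binds CACCC boxes, was at 1.08 ± 0.386, 1.05 ± 0.142 and 1.34 ± 0.191 CPM, with edgeR adjusted p values of 0.955, 0.6 and 1 for PSCI against control, taVNS against PSCI and taVNS against control. Slc4a1, Ahsp and Gata1 were thus at or near 0 in each group while globin was not.

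The red cell membrane and enzyme list had 16 tested genes, many of which brain cells also express. In PSCI against control 0 fell and Epb41 was among those that rose (2.14% of all genes fell and 7.71% rose). Epb41, protein 4.1, was at 20.4 CPM in control and 35.0 ± 9.98 in PSCI (log2 fold change 0.78, SE 0.18, edgeR adjusted p = 0.0267, up to 0.0879 and lost without any 1 control library). In taVNS against PSCI 0 of 16 were called by edgeR (5.75% of all genes were called). An unadjusted p under 0.05 was found for 5 of 16 (3132 of 14840 genes), and DESeq2 called 3 (10.4% of all genes). The list's median log2 fold changes were -0.10, 0.11 and -0.01.

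Of 14 erythroid regulators 2 rose in PSCI against control, where 7.71% of all genes rose. Tal1, a factor of blood and vessel precursors, went from 3.18 ± 0.463 to 7.70 ± 3.20 CPM (log2 fold change 1.28, SE 0.311, edgeR adjusted p = 0.0338, lost in 11 of 18 alternatives, up to 0.105). Slc25a39, a mitochondrial glutathione carrier that is not confined to red cells, went from 36.4 ± 1.25 to 47.6 ± 3.87 CPM (0.39, SE 0.0893, edgeR adjusted p = 0.0269, up to 0.105). It was the 1 gene of the list that fell in taVNS against PSCI, where 4.91% of all genes fell. Its level in taVNS was 36.2 ± 0.758 CPM (-0.39, SE 0.0893, edgeR adjusted p = 0.0374, lost in 14 of 18 alternatives). Of the 13 other genes of haem synthesis, Alas1 among them, edgeR called 0 in PSCI against control and 0 in taVNS against PSCI. Over all genes it called 9.85% and 5.75%, so 0 of 13 is not read as a lack of change. In each comparison 1 of 13 had an unadjusted p under 0.05 (3757 and 3132 of 14840 genes). DESeq2 called 0 in each (15.2% and 10.4% of all genes). Their median log2 fold change was -0.08 in PSCI against control.

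Free haemoglobin and haem are taken up and broken down by a separate set of proteins, of which 17 were tested. In PSCI against control 2 rose and 0 fell, beside 7.71% and 2.14% of all genes. In taVNS against PSCI 0 rose and 1 fell, beside 0.842% and 4.91% of all genes. Hmox1, haem oxygenase 1, which opens the haem ring, was at 6.28, 4.25 and 3.97 CPM in control, 9.41, 38.0 and 31.5 CPM in PSCI and 6.52, 6.08 and 6.69 CPM in taVNS. It was highest in the group with the least haemoglobin, but within that group PSCI replicate 1 had the least haemoglobin and the least Hmox1. The 3 stimulated rats lay at the level of the highest control. The log2 fold change was 2.44 (SE 0.447, edgeR adjusted p = 0.0112) for PSCI against control and -2.03 (SE 0.437, edgeR adjusted p = 0.0312) for taVNS against PSCI. The first missed the threshold without control replicate 2 or 3 (up to 0.057), and the second in 12 of 18 alternatives, among them without PSCI replicate 2 or 3 or any 1 taVNS library (up to 0.124). Nfe2l2, the NRF2 factor that switches on Hmox1, went from 25 CPM in control to 40.9 ± 10.1 in PSCI (0.71, SE 0.162, edgeR adjusted p = 0.0257, lost in 8 of 18 alternatives, up to 0.0922).

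Haptoglobin and Cd163 did not pass edgeR's test on all 9 libraries, and hemopexin had too few counts to be tested. Hp (haptoglobin), which binds free haemoglobin, was at 3.42 ± 0.732, 2.91 ± 0.133 and 3.98 ± 0.845 CPM. Cd163, the macrophage receptor for that complex, was at 0.441 to 1.10 CPM in control, 0.818, 16.0 and 1.5 CPM in PSCI and 0.490 to 2.19 CPM in taVNS (edgeR adjusted p = 0.132 for PSCI against control and 0.23 for taVNS against PSCI). DESeq2 called Cd163 in PSCI against control (adjusted p = 0.0256), as did edgeR without PSCI replicate 1 (adjusted p = 0.0413). Its 16.0 CPM was in PSCI replicate 2, a library with high meningeal markers, and without that library its log2 fold change was 0.53 (edgeR adjusted p = 0.683). Hemopexin (Hpx), which binds free haem, had 10, 14 and 11 counts over the 3 groups.

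Markers of other blood cells were set beside haemoglobin. Summed neutrophil markers ran from 4.28 to 5.52 CPM in control, 13.4 to 21.4 in PSCI and 7.64 to 8.81 in taVNS, and summed lymphocyte markers from 11.8 to 18.1, 24.9 to 34.9 and 14.4 to 24.3 CPM. The genes left out of list sums here and for the vessel lists were picked after their values were seen. The neutrophil sum rested on Csf3r, and without it the ranges were 1.31 to 2.90, 1.91 to 5.61 and 2.45 to 3.85 CPM, which overlap between all groups. The lymphocyte sum without Cd4, which microglia and macrophages of the rat also express, and without Cd8a was 8.59 to 9.70, 13.0 to 23.0 and 8.61 to 9.88 CPM, highest in the PSCI group, where haemoglobin was lowest. Of 3 neutrophil genes tested, Csf3r, the receptor for granulocyte colony-stimulating factor, which microglia also express, rose from 2.84 ± 0.192 to 13.2 ± 2.30 CPM (2.21, SE 0.203, edgeR adjusted p = 6.32e-04) and fell to 4.74 ± 0.829 CPM in taVNS (-1.48, SE 0.195, edgeR adjusted p = 0.0051). The granule genes that define neutrophils were scarce, with 3, 20 and 2 counts of S100a8 and 8, 27 and 11 of S100a9 over control, PSCI and taVNS. Of 5 lymphocyte genes tested, Cd8a, a coreceptor of cytotoxic T cells, rose in PSCI against control (edgeR adjusted p = 0.0426). It had 0 counts in every control library, 5, 153 and 44 in the PSCI libraries and 20 over taVNS, so PSCI replicate 2 held most of them. The call was lost without that library (edgeR adjusted p = 0.0601) and in 9 of 16 alternatives in all, up to 0.109. Platelet markers summed to 15.4 to 21.1, 20.7 to 42.8 and 20.4 to 30.7 CPM, but only 3 of the 14 genes found were tested. In PSCI against control edgeR called 0 of 3 (9.85% of all genes). There 2 had an unadjusted p under 0.05 (3757 of 14840 genes), and DESeq2 called 2 (15.2%). In taVNS against PSCI these numbers were 0, 1 and 1 (5.75%, 3132 of 14840 and 10.4% of all genes). The platelet chemokine Pf4 had 0, 6 and 2 counts, so the sum is not read as an amount of platelets.

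Vessel markers, which would follow the amount of vessel in a piece of tissue, were also measured beside haemoglobin. Summed endothelial markers ran from 308 to 513 CPM in control, 538 to 688 in PSCI and 418 to 549 in taVNS. By edgeR 2 of 18 genes (Tie1 and Vwf) rose in PSCI against control, beside 7.71% of all genes. In taVNS against PSCI edgeR called 0 of 18 (5.75% of all genes were called). An unadjusted p under 0.05 was found for 2 of 18 (3132 of 14840 genes), and DESeq2 called 2 (10.4% of all genes). The calls of Tie1 and Vwf were lost in 13 and 10 of 18 alternatives. Pericyte and smooth muscle markers ran from 99.0 to 150 CPM, 227 to 287 and 131 to 184 CPM. In that list 3 of 12 rose in PSCI against control, beside the same 7.71% of all genes. Anpep and Myh11 lost the call in 7 and 5 of 18 alternatives. Tagln, an actin-binding protein of smooth muscle, went from 8.02 ± 2.61 to 120 ± 22.1 CPM and back to 9.64 ± 1.45 in taVNS (3.90, SE 0.257, edgeR adjusted p = 7.2e-05, and -3.64, SE 0.253, edgeR adjusted p = 1.15e-04). Without Tagln the pericyte and smooth muscle sum was 89.0 to 141 CPM in control, 124 to 170 in PSCI and 120 to 173 in taVNS, so PSCI and taVNS overlapped. The part of these markers in the haemoglobin levels was not tested.

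**Figure D5:**
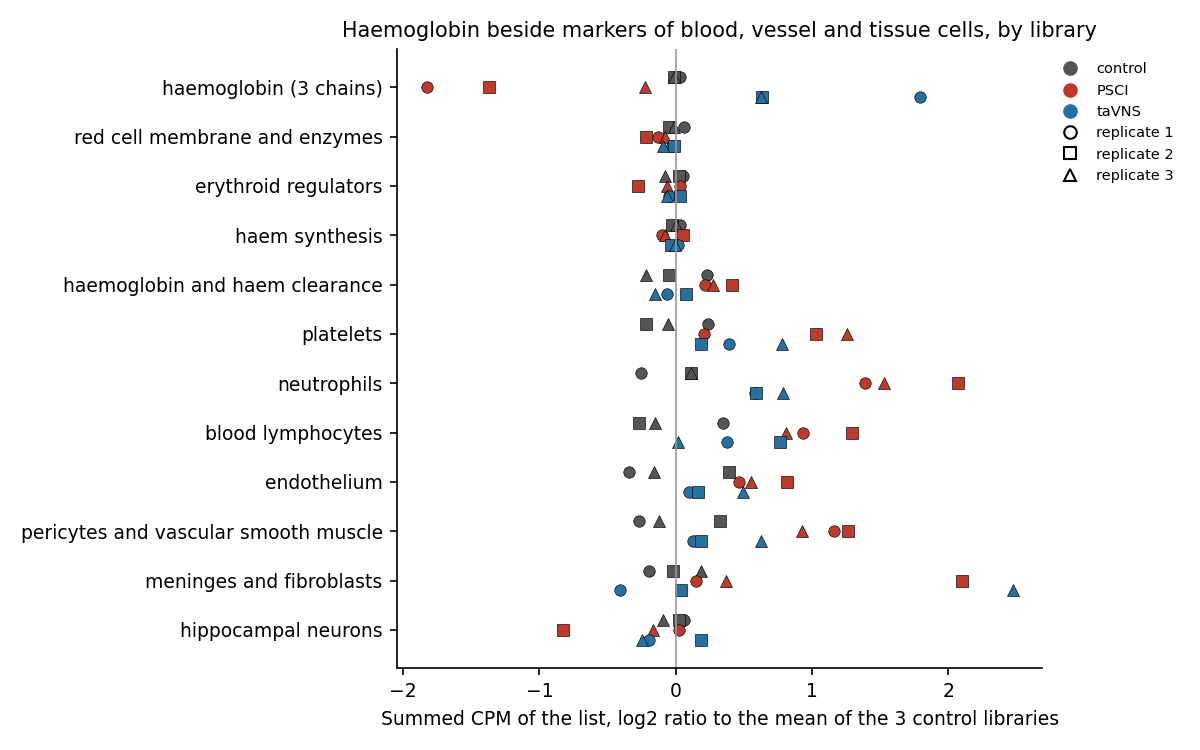
Summed CPM of haemoglobin and of 11 marker lists in each library, as a log2 ratio to the mean of the 3 control libraries (horizontal axis), with colours for groups and symbols for replicates. Haemoglobin is lowest in PSCI and highest in taVNS, while the neutrophil, lymphocyte, pericyte and endothelial lists have their highest values in PSCI libraries. Without Tagln the pericyte list does not. Without Csf3r only PSCI replicate 2 lies above the other groups in the neutrophil list. The meningeal list is high in PSCI replicate 2 and taVNS replicate 3.

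The genes most like summed haemoglobin across the 9 libraries were sought among 14223 genes of at least 1 CPM. Hba-a2 came first (Pearson's r 0.97 on log2 CPM, and 0.94 within groups). It was followed by Adra1a, the alpha-1A adrenergic receptor (0.92 and 0.79), Mxra7 (0.92 and 0.78), Spdya (0.91 and 0.78) and Drd2, a dopamine receptor (0.91 and 0.79). Only these 5 reached r of 0.9, and 10 genes reached -0.9 or below. Next came Rgs6, a regulator of G protein signalling (0.89), then Zfp653, Sirt6 and Zfp869 (0.88 each) and Abtb1 (0.87). Without the 2 libraries farthest from the median, PSCI replicate 1 and taVNS replicate 1, r was 0.93 for Hba-a2, 0.90 for Adra1a and 0.63 for Zfp869. Libraries fall into 3 groups and share their depth across genes, so these are likenesses over 9 points. Hba-a2 also shares reads with Hba-a1, which is part of the sum, so its likeness is partly built in. None of the genes named here other than Hba-a2 is on the red cell or erythroid lists.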

How the data were processed

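Per the labels' protocols, poly(A) RNA of rat hippocampus was made into strand-marked libraries. The authors deposited RPKM values and expected counts per gene, which estimate reads per gene and are not scaled. According to the submitters' processing notes, the tools were HISAT2 2.0.4 and RSEM 1.2.8, with the build mRatBN7.2 and without their roles, annotation or filters. RefSeq tables of GRCr8 gave names, gene order and promoters, and 18486 of 18733 identifiers were found in them.

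Counts were rounded for edgeR 4.0.16 (R 4.3.3), filtered with filterByExpr (14840 genes), TMM-scaled, and fitted by the quasi-likelihood test on all 9 libraries. The threshold was 0.05 on Benjamini-Hochberg adjusted p-values. The script was tested on simulated data. In a library 3 counts correspond to 0.195 to 0.218 CPM. DESeq2 1.42.0, limma 3.58.1 on log2(RPKM + 0.1) or + 1, other scalings, a replicate block and left-out libraries were alternatives. No label says that replicates shared a litter or day, nor that they had separate cages or cohorts. The p-values treat the rats as independent, and a litter, day, cage or cohort that followed the groups could not be told apart from them.

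The members and gene lists were chosen with earlier results of these data known. Named genes are the members, the globins, listed defining markers, called genes of the lists (up to 6 or 3 by p), and the 10 most like summed haemoglobin. Some genes that this rule covers are not reported here.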

Additional observations from a re-analysis of the deposited data

How the results depend on the processing

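The members kept their direction in every alternative run, while their calls depended on the setting. The calls of Csf3r and Tagln in PSCI against control and in taVNS against PSCI were kept in all 18 alternatives. In PSCI against control edgeR called 1461 genes, DESeq2 2257, and edgeR on the 2 groups alone 806, with 548 to 2255 when 1 library was left out. In taVNS against PSCI edgeR called 854 genes and DESeq2 1550. That count was 502 with limma on log2(RPKM + 0.1), 452 with limma without a filter, 250 with the 2 groups alone, 361 without the 2 libraries with high meningeal markers (an alternative chosen after seeing the data), and 172 to 1707 with 1 library left out. In taVNS against control edgeR called 0 genes and DESeq2 9. There limma called 1 with or without a filter, and 1 was called without the meningeal-marker libraries, with 0 to 1 over the fits that left out 1 library. Deviations of same-numbered rats from their group means correlated at -0.468 to 0.255. With means of 3 libraries, these values cannot tell whether the replicate numbers pair the rats. With the replicate number as a block, 1084 genes were called in PSCI against control, 518 in taVNS against PSCI and 0 in taVNS against control. On log2(RPKM + 1) the Alas2 difference was 0.93 for taVNS against PSCI and 0.67 for taVNS against control. The cause of these shifts was not tested. Depth limits Alas2, Hba-a3 and the red cell markers, which rest on few counts.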
